A study of Rattus norvegicus with 28 samples.

Results

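Desipramine, a tricyclic antidepressant, was compared with no drug in C6 cells, a rat glioma line used as a stand-in for astrocytes. The comparison uses 12 of the 28 arrays of the study. Of these, 6 held RNA of cells given 25 µM desipramine for 2 h and 6 held RNA of untreated cells. All cells had been without serum for 24 h, and the labels name no vehicle for the untreated ones. The labels number the 6 samples of each group 1 to 6 and call them biological replicates, without saying whether these were separate cultures, so that p-values measure the spread between these samples. The remaining arrays came from cells given 25 µM of fluoxetine (6), haloperidol (6) or diazepam (4) for 2 h, and serve here only to ask whether a gene's level differed between desipramine and another drug. C6 is 1 clonal tumour line, so no other cell type of the brain was present by design.

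Desipramine blocks the plasma membrane transporter for noradrenaline and, less strongly, the one for serotonin. It is also a lipophilic amine, a kind of molecule that gathers in lysosomes. Cells that receive a growth factor, a cytokine or a stress switch on immediate early genes without new protein synthesis. Their products include transcription factors, feedback inhibitors of the MAP kinase cascade, chemokines and receptors. A separate program, the integrated stress response, starts when phosphorylation of the initiation factor eIF2 slows protein synthesis and favours translation of the transcription factor Atf4, which then switches on genes of amino acid supply and stress control.

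The glial identity of the cells was checked by markers. Probes of the glial genes Gfap, Slc1a3, S100b, Gja1, Vim and Nes were detected (detection p under 0.05) on 12 of 12 arrays, while Aqp4, the water channel of mature astrocytes, was detected on 0. The microglial genes Aif1, Itgam, Ptprc, Tyrobp, C1qa and C1qb, the endothelial genes Cdh5, Tek, Vwf and Esam, and the neuronal genes Snap25, Syn1 and Slc17a7 were also detected on 0 of 12. Other members of the same lists were detected. The neuronal Map2, Syt1, Nefl, Nefm and Gad1, the endothelial Tie1 and the microglial Tmem119 were detected on 12 of 12, the neuronal Rbfox3 and the endothelial Cldn5 on 11, Flt1 on 9, and the microglial Cx3cr1 and Trem2 on 7 and 6. Of the oligodendrocyte lineage genes, Pdgfra, Cspg4, Sox10, Olig1 and Cnp were detected on 12 of 12. Olig2 and Mbp were detected on 9 and 7, and Mog, Mag and Mobp on 0. Each array detected between 9857 and 10537 of 22523 probes. The first principal component, with 26.8% of the variance, placed desipramine arrays 1 to 4 between -15.0 and -8.8, below the span of the untreated arrays, -5.1 to 15.9. Desipramine array 5, at -3.4, lay near the lower end of that span and desipramine array 6, at 10.8, in its upper part. Untreated array 1 lay lowest among the untreated. Both arrays are given separately wherever they bear on a result.

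Within 2 h, desipramine raised more genes than it lowered, and the rises were larger. Of 10645 probes tested, limma called 307 higher and 192 lower at an adjusted p under 0.05, which is 4.69% of the probes (2.88% higher, 1.80% lower). A fit that paired the samples by number called 1313 probes, 12.3%: 670 rose (6.29%) and 643 fell (6.04%), and all 499 were among them in the same direction. That fit is called the replicate block below. Counts of calls in the gene lists below, with and without the block, are to be read beside these shares. The called probes with 1 gene symbol named 263 genes that rose and 147 that fell. A change of at least 2-fold was found for 26 called probes, all of them higher, and a change of at least 1.5-fold for 98 higher and 28 lower. All 6 paired differences, desipramine minus untreated of the same number, had the same direction for 441 of the 499. In 218 the groups did not overlap at all, 139 higher and 79 lower. Over all tested probes, 1.56% had every desipramine value above every untreated value and 1.07% every value below.

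Numbers 1 to 4 and numbers 5 and 6 stood somewhat apart in the principal components of both groups. Within numbers 1 to 4 alone limma called 350 probes. Within numbers 5 and 6 alone it called 0, with 796 at an unadjusted p under 0.05. The count depended on single arrays. Without desipramine array 3 it was 253, without desipramine array 4 it was 266, and without untreated arrays 2, 4 or 5 it was 321, 307 and 301. Without desipramine array 6 the count was 718, and without desipramine array 6 and untreated array 1 together, a choice made after seeing the data, it was 996.

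**Figure D1:**
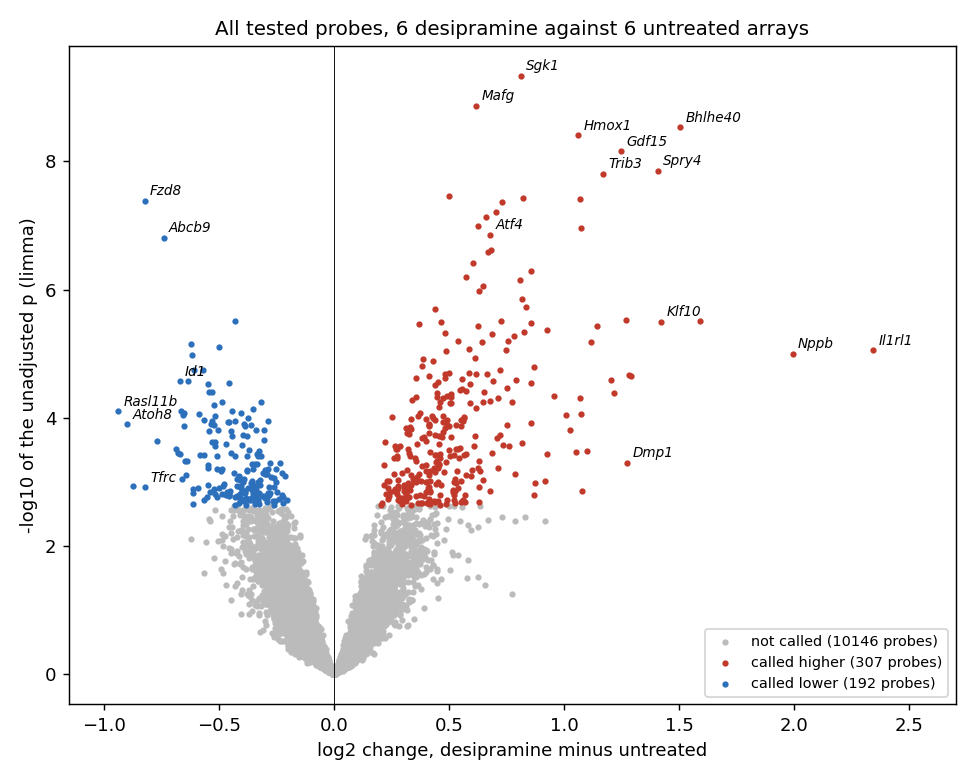
Log2 change of each tested probe (horizontal axis) against the -log10 of its unadjusted limma p (vertical axis), for 6 desipramine against 6 untreated arrays. Red points are the 307 probes called higher and blue points the 192 called lower. Il1rl1 and Nppb lie farthest right but not highest, since their desipramine arrays spread widely, while Sgk1 and Mafg have smaller changes and the smallest p-values.

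The largest rise was that of Il1rl1, the receptor of interleukin 33. Its lowest, median and highest log2 intensity was 5.39, 5.71 and 5.89 on the untreated arrays and 5.87, 8.36 and 9.04 on the desipramine arrays. Its level stood well above the untreated range on desipramine arrays 1 to 5 and inside it on array 6. The mean difference was 2.34 ± 0.38 (log2, SE, n = 6 and 6; limma adjusted p = 0.00175), a 5.07-fold rise. The paired differences for numbers 1 to 6 were 2.095, 1.89, 3.65, 3.16, 3.15 and 0.10. An exact two-sided permutation test over the 12 arrays gave p = 0.00433 for Il1rl1, where 0.00216 is the smallest p that 6 against 6 allows.

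Nppb, which encodes the natriuretic peptide BNP, had the second largest rise. Its untreated levels (lowest, median, highest) were 5.34, 5.43 and 5.57 and its desipramine levels 6.11, 7.501 and 8.57. Here the groups did not overlap, and array 6 was the lowest of the desipramine arrays. The log2 difference was 1.99 ± 0.33 (SE, n = 6 and 6; adjusted p = 0.00194; 3.98-fold), with paired differences of 1.56, 1.17, 2.58, 2.76, 3.14 and 0.75. Both genes were highest on desipramine arrays 3, 4 and 5 and lower on arrays 1 and 2.

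Among probes with a gene symbol, Bhlhe40, Klf10, Spry4 and Sox8 came next. Bhlhe40, a repressor tied to the circadian clock, went from 9.18, 9.46 and 10.05 (lowest, median, highest) to 10.46, 11.05 and 11.30, with no overlap (1.503 ± 0.14, adjusted p = 1.0e-05). Spry4, a feedback inhibitor of receptor tyrosine kinase signalling, went from 5.70, 5.87 and 6.27 to 7.003, 7.24 and 7.84, again with no overlap (1.41 ± 0.14, adjusted p = 2.4e-05). Klf10, an early zinc finger repressor, rose by 1.42 ± 0.21, adjusted p = 0.000973. Its groups overlapped because untreated array 1, at 9.05, lay above desipramine array 6, at 8.68. Sox8, a transcription factor of glial lineages, rose by 1.29 ± 0.23, adjusted p = 0.00331 without overlap and most on numbers 3, 4 and 5, by 1.93, 1.93 and 2.07.

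The other genes among the 15 largest rises were Ccl2, Dmp1, Epha2, Gdf15, Ptgs2, Clcf1, Trib3, Serpinb2 and Tnfrsf12a, with log2 differences from 1.12 (Tnfrsf12a) to 1.28 (Ccl2). Epha2, a receptor of ephrins, went from 5.76, 6.33 and 6.49 to 6.68, 7.65 and 7.96 without overlap (1.27 ± 0.19, adjusted p = 0.000973). Serpinb2, an inhibitor of plasminogen activators, went from 7.06, 7.36 and 7.60 to 8.04, 8.47 and 8.98, also without overlap (1.14 ± 0.17, adjusted p = 0.00100). Clcf1, a cytokine of the interleukin 6 family, rose by 1.20 ± 0.21, adjusted p = 0.00360.

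The RefSeq promoter table (rat build GRCr8) holds 11 of these 15 genes. Its windows run from 250 bases before the start of the gene to 50 after it. Shown are the windows of the 2 largest rises, followed by the next in order of size that hold any of the motifs searched for, a choice made after the search. Capitals mark the motif.

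Il1rl1, chr9:50203388-50203687, plus strand: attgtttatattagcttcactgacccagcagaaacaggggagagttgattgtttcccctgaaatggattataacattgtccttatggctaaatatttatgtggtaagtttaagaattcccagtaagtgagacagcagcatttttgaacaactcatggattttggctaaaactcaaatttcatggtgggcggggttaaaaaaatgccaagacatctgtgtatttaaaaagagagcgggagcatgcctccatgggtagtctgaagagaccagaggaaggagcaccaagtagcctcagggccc
Nppb, chr5:163699758-163700057, plus strand: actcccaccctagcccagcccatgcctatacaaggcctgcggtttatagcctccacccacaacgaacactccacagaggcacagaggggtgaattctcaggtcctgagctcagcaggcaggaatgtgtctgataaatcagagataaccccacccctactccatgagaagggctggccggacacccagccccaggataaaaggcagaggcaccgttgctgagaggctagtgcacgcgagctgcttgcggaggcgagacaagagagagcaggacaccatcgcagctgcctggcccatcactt
Bhlhe40, chr4:143174200-143174499, plus strand: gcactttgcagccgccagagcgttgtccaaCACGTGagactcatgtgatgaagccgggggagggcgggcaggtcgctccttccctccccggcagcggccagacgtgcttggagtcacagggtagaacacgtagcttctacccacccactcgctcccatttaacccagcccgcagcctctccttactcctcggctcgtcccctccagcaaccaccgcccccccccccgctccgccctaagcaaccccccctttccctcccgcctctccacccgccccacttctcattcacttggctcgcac
Epha2, chr5:158888379-158888678, plus strand: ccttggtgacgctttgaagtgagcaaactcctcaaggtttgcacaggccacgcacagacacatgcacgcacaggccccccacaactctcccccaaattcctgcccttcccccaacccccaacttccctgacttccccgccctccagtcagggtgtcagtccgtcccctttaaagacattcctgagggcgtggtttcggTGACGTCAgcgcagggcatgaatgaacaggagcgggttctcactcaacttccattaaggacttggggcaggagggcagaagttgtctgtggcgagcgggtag
Ptgs2, chr13:64713813-64714112, plus strand: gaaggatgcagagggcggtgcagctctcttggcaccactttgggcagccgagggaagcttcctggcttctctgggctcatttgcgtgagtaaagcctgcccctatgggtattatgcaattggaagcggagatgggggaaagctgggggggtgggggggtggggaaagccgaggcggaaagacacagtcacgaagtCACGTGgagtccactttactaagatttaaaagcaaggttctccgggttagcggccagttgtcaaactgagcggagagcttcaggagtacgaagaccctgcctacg
Trib3, chr3:161275484-161275783, minus strand: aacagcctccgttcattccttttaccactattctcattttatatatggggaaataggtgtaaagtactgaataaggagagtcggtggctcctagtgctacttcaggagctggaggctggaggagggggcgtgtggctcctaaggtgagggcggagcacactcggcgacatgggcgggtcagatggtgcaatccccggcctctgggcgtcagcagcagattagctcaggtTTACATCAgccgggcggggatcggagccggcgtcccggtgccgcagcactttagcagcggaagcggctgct

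The motifs were searched on both strands. The cAMP response element TGACGTCA was found in 1 of the 11 windows, that of Epha2, and in 1.83% of all 33469 promoters. The E-box CACGTG was found in 2, those of Bhlhe40 and Ptgs2, and in 6.42% of all. TGATGNAA, the composite of CCAAT-enhancer and ATF sites, was found in 1, that of Trib3, on the opposite strand as TGATGTAA, and in 3.98% of all. The AP-1 motif TGANTCA was found in 1, that of Serpinb2 (not shown), and in 7.33%. A motif of NF-kappaB, in 5.0% of all promoters, and the CArG box, in 1.64%, were found in 0 of the 11. These matches describe the letters of the windows.

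Genes of the integrated stress response rose. Of 14 measured regulators and outputs, 9 were called higher and 0 lower (10 and 1 with the replicate block), with a median log2 difference of 0.54 against -0.0061 over all tested probes. One of the 9, Gdf15, entered the test only through the desipramine arrays, where it was high. Without it 8 of 13 were called higher, with a median of 0.50. Atf4, its central transcription factor, went from 9.95, 10.32 and 10.43 (lowest, median, highest) to 10.83, 10.94 and 11.13 (0.68 ± 0.08, adjusted p = 8.7e-05). Array 6 had the highest Atf4 level of the desipramine arrays, 11.13, and the groups did not overlap. Ppp1r15a, which recruits the phosphatase that reverses eIF2 phosphorylation, went from 7.38, 7.55 and 7.66 to 8.05, 8.23 and 8.36 (0.68 ± 0.084, adjusted p = 0.000134), and its paired differences kept within 0.58 to 0.80.

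Trib3, a pseudokinase induced by Atf4, went from 5.67, 5.77 and 5.91 to 6.55, 6.93 and 7.31 (1.17 ± 0.12, adjusted p = 2.4e-05). Its paired difference was 1.16 on number 6 and smallest, 0.72, on number 4. Chac1, which degrades glutathione, rose by 1.08 ± 0.13, adjusted p = 7.4e-05. Gdf15, a secreted stress hormone, was detected on 0 of 6 untreated and 6 of 6 desipramine arrays, so its rise is a bound of at least 1.86-fold (measured means 4.91 and 6.16). That bound sets the desipramine mean against the lowest signal among well detected probes of each untreated array. Ddit3, Gadd45a, Cebpb and Nupr1 completed the 9, with rises from 0.41 (Nupr1) to 0.71 (Gadd45a). Cebpb, unlike the others, rose little on number 6 (0.092).

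Genes of amino acid supply under Atf4 moved less. Of 15 measured, 5 were called higher and 0 lower (6 and 0 with the block), with a median of 0.16. Slc3a2, the shared heavy chain of several amino acid exchangers, rose by 0.49 ± 0.079, adjusted p = 0.00179 and by 0.60 on number 6. Slc7a5, its light chain partner, rose by 0.47 ± 0.094, adjusted p = 0.00762. The glutamine carrier Slc1a5 rose by 0.77 ± 0.15, adjusted p = 0.00544 and was less even, from 0.17 on number 6 to 1.29 on number 4. Slc6a9 and the alanyl-tRNA synthetase Aars1 rose by 0.38 and 0.33. The call of Aars1 was lost without desipramine array 3 (adjusted p = 0.0517) and that of Slc6a9 without any 1 of 7 arrays, desipramine 1 to 4 and untreated 2, 4 and 5 (0.0605 to 0.0860).

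Other stress genes gave fewer calls, beside 4.69% called over all tested probes and 12.3% with the block. Of 16 measured chaperones and folding genes of the endoplasmic reticulum, 2 were called higher, Herpud1 (0.57 ± 0.13, adjusted p = 0.0170) and Xbp1 (0.27 ± 0.062, adjusted p = 0.0172), and the median was -0.00062. With the block 3 were higher and 1 lower. Xbp1 lost its call without desipramine array 3 or 4 (0.0517 and 0.0519). Of 9 heat shock genes, 1 was called higher, Dnaja1 (0.25 ± 0.051, adjusted p = 0.00782), and 3 higher and 1 lower with the replicate block. Of 13 Nrf2 targets, 2 were called higher, and 4 with the block. Hmox1, heme oxygenase, was the larger: it went from 9.40, 9.73 and 10.01 to 10.53, 10.86 and 10.93 without overlap (1.06 ± 0.099, adjusted p = 1.0e-05), and rose on every number, by 0.90, 1.28, 1.14, 1.21, 1.13 and 0.71. Gclc, which starts glutathione synthesis, rose by 0.59 ± 0.11, adjusted p = 0.00544, but by only 0.089 and 0.008 on numbers 1 and 6. Nqo1 and Txnrd1 behaved like Gclc across the numbers and were not called (0.43 ± 0.16, adjusted p = 0.141 and 0.58 ± 0.22, adjusted p = 0.155; with the block, 0.0355 and 0.0461).

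Of the immediate early transcription factors some rose and a few fell. Of 7 measured AP-1, ATF and small Maf genes, 5 were called higher and 1 lower (6 and 1 with the block). Mafg, a small Maf partner of the Nrf2 and Bach factors, had the highest ratio of change to spread between desipramine arrays among called genes with a change of at least 0.5 (log2): it went from 11.33, 11.45 and 11.56 to 11.997, 12.04 and 12.18 (0.62 ± 0.054, adjusted p = 7.2e-06), with paired differences within 0.51 to 0.76. Tmed5, of a family of cargo carriers in the early secretory pathway, came second by that ratio. It varied more on the untreated arrays, 5.72, 6.25 and 6.74, than on the desipramine arrays, 6.66, 6.78 and 6.88 (0.53 ± 0.14, adjusted p = 0.0378), and lost its call without any 1 of 7 arrays, desipramine 1, 3, 4 and 5 and untreated 2, 3 and 4 (0.0527 to 0.0935). Maff and Mafk rose by 0.86 and 0.83, although Maff was detected on only 1 of 6 untreated arrays. Maff thus reached the 4 arrays needed for testing only with the desipramine arrays, where it was high. Without Maff, the members of this list called higher are Mafg, Mafk, Fos and Atf3. Fos rose by 0.75 ± 0.12, adjusted p = 0.00175 without overlap. Atf3 rose by 0.54 ± 0.13, adjusted p = 0.0250, most on numbers 2 and 6 (0.95 and 1.10) and least on number 4 (0.15). Jun went the other way and fell by 0.30 on the log2 scale (SE 0.072, adjusted p = 0.0244).

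Junb had a log2 difference of 0.79 ± 0.24 that was not called (adjusted p = 0.0712; 0.00258 with the replicate block), with 0.05 and 0.18 on numbers 1 and 6 against at least 1.03 on each of the others. Single arrays ended 2 of the calls in this group. Atf3 lost its call without desipramine arrays 2 or 3 or untreated arrays 2, 4 or 6 (0.0506 to 0.0624), and Jun without desipramine array 3 or untreated arrays 2 or 5 (0.0507 to 0.0643).

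Of 14 zinc finger and nuclear receptor factors of the early response, 7 were called higher and 1 lower, with or without the block. Bhlhe40 and Klf10, above, are 2 of the 7. Myc, the growth regulator, rose by 0.73 ± 0.08, adjusted p = 3.9e-05 without overlap and by 0.63 on number 6. Egr1 and Egr2, the serum and depolarisation responsive factors, rose by 0.65 ± 0.16 and 0.48 ± 0.10 (adjusted p = 0.0311 and 0.0101), with only 0.13 and 0.078 on number 1. Klf9, a glucocorticoid and thyroid hormone responsive factor, rose by 0.46 ± 0.087, adjusted p = 0.00544. Klf2, better known from endothelium, fell by 0.53 (SE 0.12, adjusted p = 0.0129) with no overlap. Klf4 rose by 0.37 ± 0.10, just past the threshold (0.0469), and lost its call without any 1 of 10 arrays, all but untreated 1 and desipramine 6 (0.0706 to 0.116). Egr1 lost its call without any 1 of 7 arrays, desipramine 1, 2 and 4 and untreated 3, 4, 5 and 6 (0.0523 to 0.0792).

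Of 15 early response genes of signalling and mRNA decay, 9 rose and 0 fell (10 and 0 with the block), with a median of 0.59. Ier2 and Ier3, short proteins of the immediate early class, rose by 1.02 ± 0.21 and 1.07 ± 0.20 (adjusted p = 0.00962 and 0.00504). On numbers 2 to 5 their paired differences were at least 1.14 and 1.26, while on number 1 they were 0.071 and 0.023. Untreated array 1 held the highest untreated level of both, as it did for Klf10, Spry2 and Tnfrsf12a. Noct, a phosphatase with a rhythmic transcript, and Rnd3 rose by 0.82 ± 0.11, adjusted p = 0.000556 and by 0.76 ± 0.12, adjusted p = 0.00146, both without overlap. Trib1, Ier5, Gem and Zfp36l2 rose by 0.86, 0.59, 0.44 and 0.63. Zfp36l2 lost its call without any 1 of 9 arrays, desipramine 1 to 4 and untreated 1, 2, 4, 5 and 6 (0.0596 to 0.118).

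Several inhibitors of the MAP kinase cascade rose. Of 7 measured MAP kinase phosphatases, 3 rose and 1 fell (4 and 1 with the block). Dusp6, the cytosolic phosphatase of Erk, rose by 0.87 ± 0.15, adjusted p = 0.00276 without overlap and most on numbers 3, 4 and 5 (1.39, 1.09 and 1.22). The nuclear phosphatase Dusp4 and the Jnk and p38 phosphatase Dusp8 rose by 0.83 ± 0.13 and 0.93 ± 0.14 (adjusted p = 0.00121 and 0.00112), each detected on only 2 of 6 untreated arrays. Both reached the 4 arrays needed for testing only with the desipramine arrays, where they were high. Without them Dusp6 is the only phosphatase called higher. Dusp1, the phosphatase most often counted among immediate early genes, fell: its lowest, median and highest levels were 10.24, 10.53 and 10.64 untreated and 9.43, 9.79 and 10.60 with desipramine, where array 6 was the highest (-0.64 ± 0.15; adjusted p = 0.0196). Dusp1 lost its call without desipramine arrays 3 or 4 or untreated array 4 (0.0503 to 0.0562). Of 9 receptor kinase feedback genes, Spry4, Spry2 (0.72 ± 0.12, adjusted p = 0.00298) and Rasa1 (0.43 ± 0.085, adjusted p = 0.00762) were called higher and 0 lower.

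Growth factors, like all tested probes (4.69% and 12.3%), were called less often without the block than with it. Of 9 measured, 2 were called higher, Hbegf (0.79 ± 0.19, adjusted p = 0.0268) and Pdgfa (0.49 ± 0.099, adjusted p = 0.00813), against 5 higher and 1 lower with the replicate block. One of the 5, Areg, entered the test only through the desipramine arrays, and without it the block called 4 higher of 8. The paired difference of Hbegf, an EGF receptor ligand, was at least 0.89 on numbers 2 to 5 and -0.05 and 0.11 on numbers 1 and 6. Hbegf lost its call without any 1 of 8 arrays, desipramine 1, 3, 4 and 5 and untreated 2 to 5 (0.0506 to 0.0775). Areg, another ligand of that receptor, was detected on 0 untreated and 4 desipramine arrays, and no test of it is given.

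Several inflammatory genes differed widely between the desipramine arrays. Of 7 measured chemokines and cytokines, 4 rose and 1 fell (5 and 1 with the block). Ccl2, which attracts monocytes, measured 11.27, 11.12, 11.79, 11.90, 11.96 and 10.14 on desipramine arrays 1 to 6, against 9.88, 10.13 and 10.24 (lowest, median, highest) untreated. Arrays 3 to 5 were highest, arrays 1 and 2 stood above all untreated arrays by a smaller margin, and array 6 lay among the untreated. The difference was 1.28 ± 0.22 (adjusted p = 0.00325; exact permutation p = 0.00649, two-sided, n = 6 and 6). Ccl7, its neighbour in function, measured 8.64, 8.61, 9.10, 9.14, 9.30 and 7.27 against 7.34, 7.61 and 7.82 (1.10 ± 0.25, adjusted p = 0.0159), and array 6 was below every untreated array. Cxcl1, which attracts neutrophils, had paired differences of 1.16, 0.80, 1.35, 1.74, 1.64 and -0.24 (1.07 ± 0.21, adjusted p = 0.00727).

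Cxcl10, an interferon-responsive chemokine, rose by 0.55 ± 0.14, adjusted p = 0.0314, by 0.56 to 0.73 on numbers 1 to 5 and not on number 6, where the paired difference was -0.004. It lost its call without any 1 of 8 arrays, desipramine 1 to 4 and untreated 3 to 6 (0.0581 to 0.0794). Il33, the ligand of the receptor Il1rl1, fell by 0.39 (SE 0.079, adjusted p = 0.00865) without overlap, while Il1rap, the accessory chain of that receptor, rose by 0.57 ± 0.11, adjusted p = 0.00762, also without overlap. So the receptor gene and its accessory chain were higher and the ligand lower in the same cells.

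Of 10 cytokine receptors, 4 rose and 0 fell (4 and 1 with the block). Besides Il1rl1 and Il1rap these were Tnfrsf12a, the receptor of TWEAK (1.12 ± 0.18, adjusted p = 0.00147), and Tnfrsf1a, the broad receptor of tumour necrosis factor (0.52 ± 0.15, adjusted p = 0.0468). The last lost its call without any 1 of 10 arrays, all but untreated 1 and desipramine 6 (0.0678 to 0.122). Of 10 NF-kappaB feedback genes, 5 rose and 0 fell. Irf1, an interferon regulatory factor, was the most even of them (0.61 ± 0.077, adjusted p = 0.000195, paired differences within 0.42 to 0.74), and Icam1, an adhesion molecule, rose by 0.44 ± 0.079, adjusted p = 0.00384. Birc3, Nfkb2 and Nfkbib rose by 0.63, 0.57 and 0.40, with 0.017, 0.16 and 0.12 on number 6. Birc3 lost its call without untreated or desipramine array 3 (0.0507 and 0.0571), and Nfkb2 without any 1 of 7 arrays, desipramine 1, 3, 4 and 5 and untreated 4, 5 and 6 (0.0517 to 0.0753).

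Ptgs2, cyclooxygenase 2, shared the uneven pattern. Its untreated levels were 9.10, 9.47 and 9.75 and its desipramine levels 9.70, 10.63 and 11.39, with paired differences of 0.72, 1.11, 1.92, 1.70, 1.65 and 0.20 (1.21 ± 0.22, adjusted p = 0.00457). Dmp1, a matrix phosphoprotein of bone, measured 8.58, 7.89, 9.65, 9.70, 9.78 and 7.81 on desipramine arrays 1 to 6, against 7.44, 7.58 and 7.99 untreated. Only arrays 3 to 5 stood far above the untreated range, and arrays 2 and 6 lay inside it (1.27 ± 0.30, adjusted p = 0.0204). Dmp1 lost its call without desipramine arrays 3 or 4 or untreated array 4 (0.0517 to 0.0611). The matrix protease Mmp10 and the dehydrogenase Dhrs9 were also among the 8 called genes with the largest spread between desipramine arrays (SD 0.68 and 0.67, log2), and rose by 0.87 ± 0.23 and 0.92 ± 0.23 (adjusted p = 0.0407 and 0.0314). Mmp10 lost its call without any 1 of 8 arrays, desipramine 3, 4 and 5 and untreated 1, 2, 3, 4 and 6 (0.0520 to 0.109), and Dhrs9 without any 1 of 6, desipramine 3, 4 and 5 and untreated 2, 4 and 5 (0.0603 to 0.0836).

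**Figure D2:**
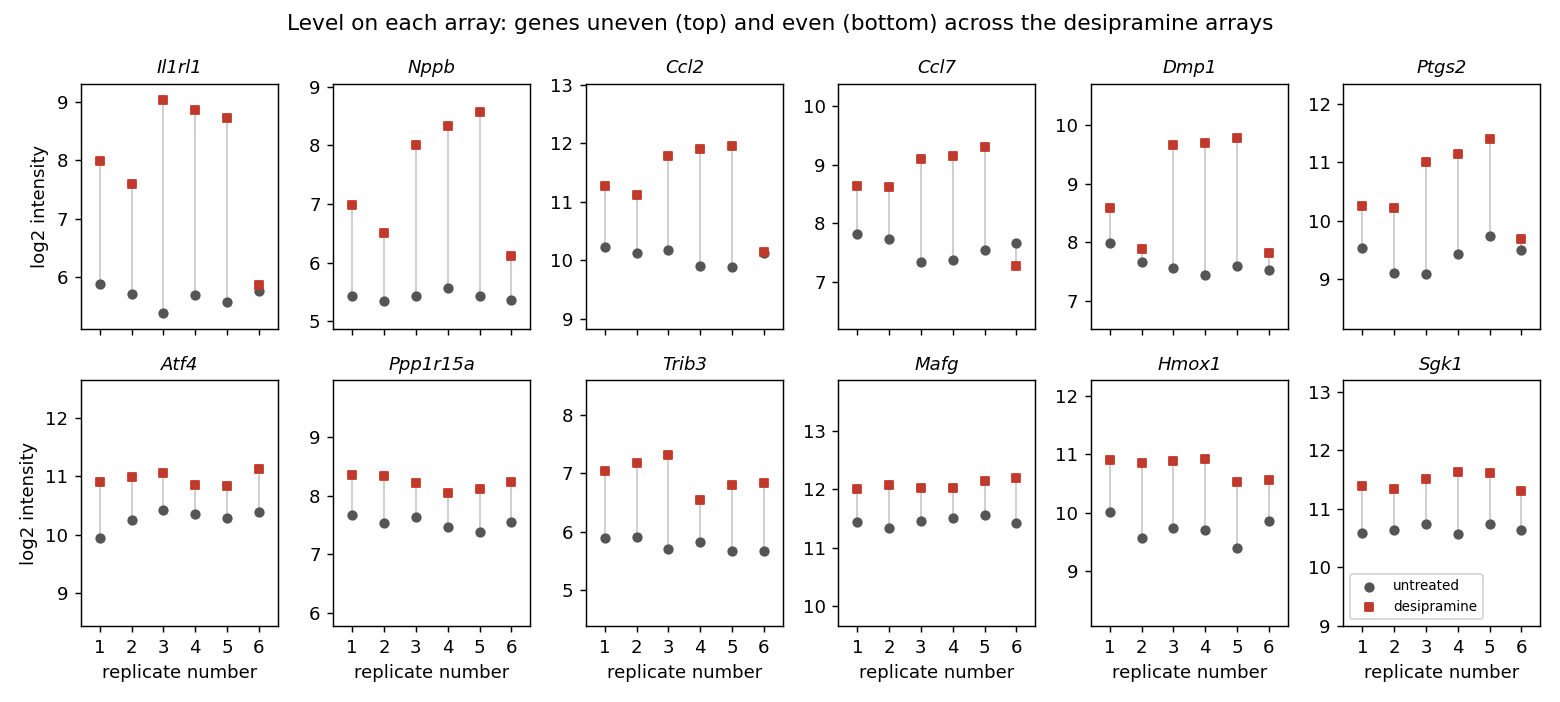
Log2 intensity (vertical axis, the same span in each panel) of 12 genes on each array, by replicate number (horizontal axis); grey circles are untreated, red squares desipramine, and a line joins the arrays of 1 number. In the top row the squares are high on numbers 3 to 5 and, except for Nppb, at or near the circles on number 6. The Nppb square lies 0.75 above its circle there. In the bottom row the distance is similar on all 6 numbers.

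The array by array response was measured on probes chosen without the array. For each number, probes were called from the other 5 numbers, and the difference of the held-out pair was read at those probes, with no test. On numbers 3, 4 and 5 the held-out pair had the same sign for 99.4%, 100% and 98.6% of 161, 138 and 209 probes. On numbers 1, 2 and 6 it had the same sign for 82.3%, 91.9% and 80.4% of 530, 260 and 581. The probe sets differ in size and strength with the number left out, so these percentages do not compare the same probes. Over all tested probes the same sign was found for 59.3% (number 6) to 70.0% (number 4).

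The size of the response differed too. At probes called higher, the median held-out difference was 0.68, 0.77 and 0.64 on numbers 3, 4 and 5, against 0.58, 0.61 and 0.55 in the mean of the other numbers. On number 2 it was 0.47 against 0.58, on number 1 it was 0.27 against 0.51, and on number 6 it was 0.21 against 0.51. At probes called lower, number 6 was again the weakest, with -0.12 against -0.43, and number 1 had -0.25 against -0.44. The slope of the held-out difference on that of the other numbers, through zero, was 0.34 for number 6, 0.53 for number 1, 0.73 for number 2 and between 1.23 and 1.28 for numbers 3 to 5.

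**Figure D3:**
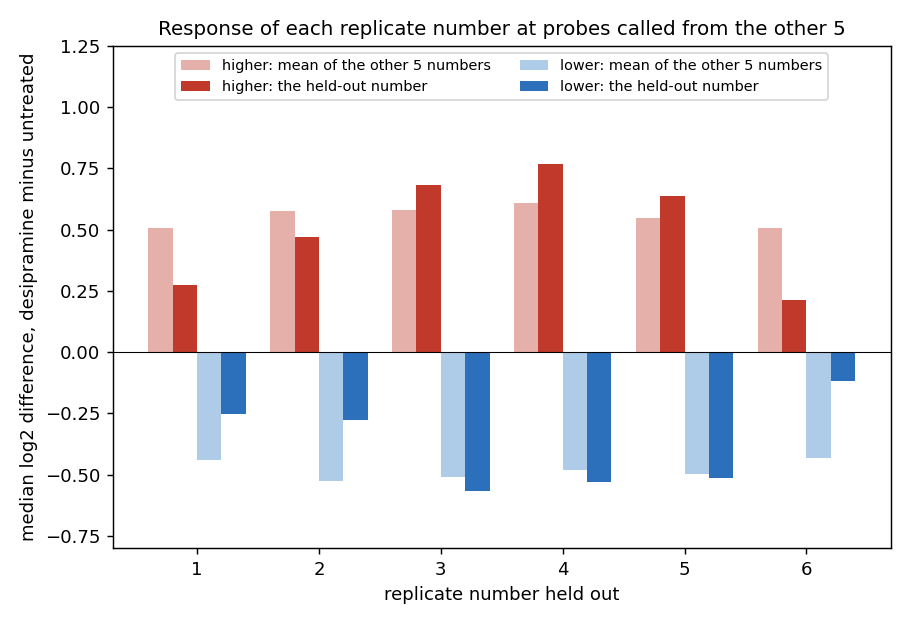
Median log2 difference, desipramine minus untreated (vertical axis), at probes called from the other 5 numbers, for each replicate number held out (horizontal axis). Dark bars are the held-out number and pale bars the mean of the other 5, red for probes called higher and blue for probes called lower; the dark bars are shortest on number 6, at 0.21 and -0.12, and longest on numbers 3 and 4.

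Numbers 6 and 1 were both weak in some genes, such as Junb, Gclc and Hbegf above, and differed in others. On number 6 the median paired difference over the chemokine and cytokine list was -0.12, against 0.56 to 0.73 on the others, while over the integrated stress response list it was 0.65, the highest of the 6 numbers. On number 1 the chemokine median was 0.71, within the range of numbers 2 to 5, and that of the early response list was 0.071, against 0.20 on number 6 and at least 0.51 on numbers 2 to 5. The small difference of number 1 lies in the untreated array for these genes: untreated array 1 measured 9.05 for Klf10, where the next untreated array was at 8.06, and desipramine array 1 measured 9.54. On number 6 it lies in the desipramine array: for Ccl7, desipramine array 6 measured 7.27 and the other 5 at least 8.61. What made these arrays differ was not tested.

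**Figure D4:**
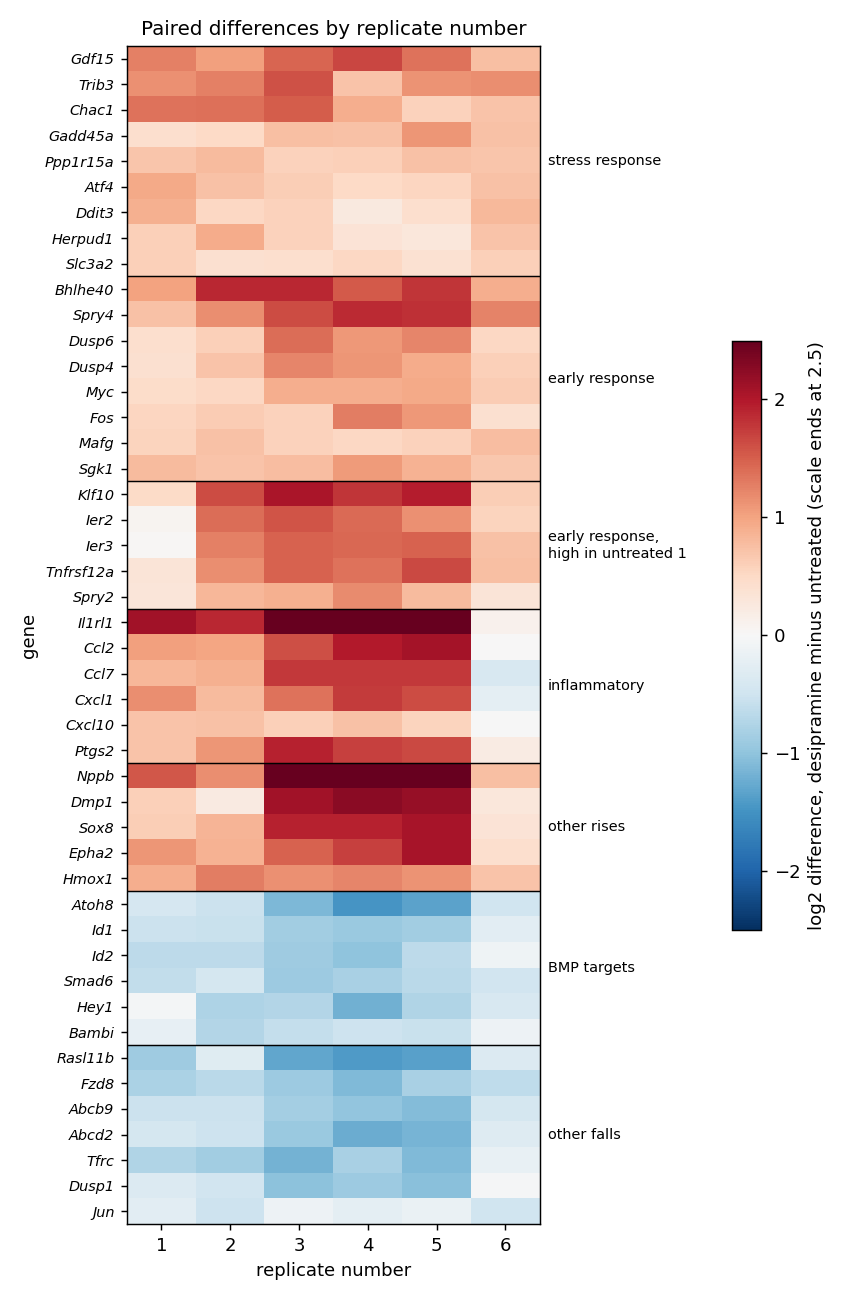
Paired log2 difference, desipramine minus untreated, of 46 genes (rows, by group) on the 6 replicate numbers (columns); red is higher and blue lower with desipramine, and the strongest colours include all larger values. The stress response rows shown are red on all 6 numbers. They include Herpud1 and Slc3a2 from other lists and leave out Cebpb, which rose little on number 6. Each inflammatory row has its lowest value on number 6.

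Several targets of BMP signalling fell. BMP ligands act through Smad proteins to keep Id genes on, and Id proteins block differentiation factors of the helix-loop-helix family. Of 16 measured BMP and TGF-beta targets, 6 were called lower and 1 higher (8 and 2 with the block), with a median of -0.32. Id1 went from 11.58, 11.88 and 11.96 (lowest, median, highest) to 10.71, 11.05 and 11.63 (-0.67 ± 0.12, adjusted p = 0.00360). Desipramine array 6 alone lay inside the untreated range. Atoh8, another BMP-induced factor, had paired differences of -0.42, -0.55, -1.12, -1.47, -1.33 and -0.49 (-0.90 ± 0.18, adjusted p = 0.00862). Id2, Smad6 and Hey1 had log2 differences of -0.66 ± 0.17, -0.66 ± 0.13 and -0.65 ± 0.13 (adjusted p = 0.0300, 0.00755 and 0.00865), and Bambi, a decoy receptor of the pathway, had -0.45 ± 0.081 (0.00373).

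In all 6 paired differences of each of these 6 genes the sign was negative. Hey1 did not overlap between groups, with -0.049 on number 1 and -1.20 on number 4. Inhba, an activin subunit, was the 1 member called higher (0.87 ± 0.22, adjusted p = 0.0324). Id2 lost its call without any 1 of 7 arrays, desipramine 1 to 4 and untreated 4, 5 and 6 (0.0590 to 0.0838), and Inhba without the same 7 arrays (0.0518 to 0.0905).

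Fzd8, a Wnt receptor, fell evenly. Its levels were 9.24, 9.35 and 9.40 untreated and 8.21, 8.56 and 8.77 with desipramine, without overlap, and its paired differences were -0.79, -0.67, -0.91, -1.11, -0.82 and -0.63 (-0.82 ± 0.089, adjusted p = 3.9e-05). Of 12 Wnt receptors and targets, Fzd8 and Fzd1 (-0.43 ± 0.12, adjusted p = 0.0426) were called lower and Ccnd1, cyclin D1, higher (0.55 ± 0.10, adjusted p = 0.00423). Over all tested probes 1.80% were called lower and 2.88% higher. Fzd1 lost its call without any 1 of 10 arrays, all but desipramine 1 and 2 (0.0510 to 0.107). In the Notch list, with 9 measured, Hes1 rose by 0.78 ± 0.12, adjusted p = 0.00128 while Hey1 fell.

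Rasl11b, a Ras-like GTPase, had the largest fall of all, from 10.96, 11.16 and 11.57 to 9.73, 10.21 and 10.88 without overlap (-0.94 ± 0.18, adjusted p = 0.00690). It fell most on numbers 3, 4 and 5 (-1.30, -1.42 and -1.35). Abcb9, a peptide transporter of lysosomes, fell from 9.48, 9.62 and 9.81 to 8.57, 8.89 and 9.06, also without overlap (-0.74 ± 0.088, adjusted p = 9.1e-05). Abcd2, which carries very long chain fatty acids into peroxisomes, had a difference of -0.77 ± 0.17, adjusted p = 0.0128, and Apln, the peptide ligand apelin, -0.65 ± 0.13, adjusted p = 0.00727. The transferrin receptor Tfrc, through which cells take up iron, measured 5.94, 6.22, 6.35, 6.53, 6.29 and 7.498 on desipramine arrays 1 to 6 and 6.69, 7.37 and 7.68 (lowest, median, highest) untreated, with only array 6 in the upper part of the untreated range (-0.82 ± 0.21, adjusted p = 0.0355). Tfrc lost its call without any 1 of 10 arrays, all but untreated 1 and desipramine 6 (0.0519 to 0.0836).

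Among 15 lineage transcription factors, Sox8 and Hes1 rose and Zic2 and Olig1 fell, and with the replicate block 3 rose and 4 fell. Olig1, which marks the oligodendrocyte lineage, had paired differences of -0.45, -0.88, -0.59, -0.84, -1.22 and -0.14 (-0.69 ± 0.15, adjusted p = 0.0152), and Zic2, a zinc finger factor of the early neural tube, -0.60, -1.01, -0.997, -0.74, -1.17 and -0.73 (-0.87 ± 0.23, adjusted p = 0.0345). Ascl2, a helix-loop-helix factor, and Fbxl4, a mitochondrial F-box protein, fell by 0.68 and 0.67 (adjusted p = 0.0169 and 0.0171). Zic2 lost its call without any 1 of 6 arrays, desipramine 2, 3 and 4 and untreated 2, 5 and 6 (0.0631 to 0.0970). Ascl2 and Fbxl4 lost theirs without desipramine array 3 (0.0501 and 0.0507).

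The 6 called falls in which number 6 departed most from the other numbers were Entpd2, Apln, St3gal6, Txnip, Tfrc and Dusp1. On number 6, Tfrc and Dusp1 still had small negative differences of -0.18 and -0.039. Txnip, which binds thioredoxin and follows glucose, had paired differences of -0.17, -0.53, -1.14, -0.90, -0.87 and 0.062 (-0.59 ± 0.15, adjusted p = 0.0356). Entpd2, an ectoenzyme that splits ATP, was detected on 5 untreated arrays and 1 desipramine array. It thus reached the 4 arrays needed for testing only with the untreated arrays, where it was high. Its paired differences were -0.65, -0.60, -0.49, -0.63, -0.68 and 0.25 (-0.47 ± 0.13, adjusted p = 0.0407). St3gal6, a sialyltransferase, had -0.52, -0.43, -0.72, -1.14, -1.08 and 0.039 (-0.64 ± 0.16, adjusted p = 0.0273). Entpd2 lost its call without any 1 of 9 arrays, desipramine 1, 3, 4 and 5 and untreated 1 to 5 (0.0504 to 0.0978). Txnip lost its call without any 1 of 8, desipramine 3, 4 and 5 and untreated 2 to 6 (0.0661 to 0.0988), and St3gal6 without any 1 of 6, desipramine 3, 4 and 5 and untreated 4, 5 and 6 (0.0523 to 0.0723).

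Genes responsive to cAMP, glucocorticoids or serum gave mixed counts. Of 17 cAMP and CREB targets, 6 were called higher and 2 lower (9 and 2 with the block). Sgk1, a kinase induced by serum and glucocorticoids, had the smallest p of all probes: it went from 10.57, 10.63 and 10.75 to 11.31, 11.45 and 11.62 without overlap (0.81 ± 0.066, adjusted p = 4.9e-06), with paired differences of 0.79, 0.71, 0.77, 1.06, 0.87 and 0.68. Rgs2, which ends G protein signals, fell by 0.49 (SE 0.12, adjusted p = 0.0238), on numbers 1 to 5 and not on number 6 (0.025), and Dusp1 fell with it. Rgs2 lost its call without any 1 of 6 arrays, desipramine 1, 3 and 4 and untreated 2, 4 and 5 (0.0508 to 0.0690). Of 10 glucocorticoid targets, Sgk1, Klf9 and Per1 rose and Dusp1 fell, and with the block 4 rose and 1 fell. Per1, a clock gene, rose by 0.43 ± 0.10, adjusted p = 0.0234, most on number 6 (0.74), and lost its call without desipramine array 3 or untreated arrays 4 or 6 (0.0509 to 0.0611).

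Of 14 Srf and Yap targets, 4 rose and 0 fell (5 and 0 with the block), and in all 4 the groups did not overlap. Ccn2, connective tissue growth factor, went from 12.77, 12.99 and 13.18 to 13.46, 13.60 and 13.73 (0.62 ± 0.072, adjusted p = 7.2e-05). The kinase Lats2, the LIM protein Fhl2 and the factor Srf rose by 0.50 ± 0.087, 0.36 ± 0.09 and 0.33 ± 0.069 (adjusted p = 0.00321, 0.0285 and 0.00919), each most on number 6, by 0.77, 0.59 and 0.62. Fhl2 lost its call without any 1 of 5 arrays, desipramine 1, 3 and 4 and untreated 4 and 5 (0.0507 to 0.0722).

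A few sterol genes rose by small amounts. Of 19 measured genes of cholesterol synthesis and uptake, 4 were called higher and 0 lower, 13 had a mean above zero, and 7 were called higher with the replicate block. Stard4, a carrier of free cholesterol, was the steadiest (0.44 ± 0.063, adjusted p = 0.000737, paired differences within 0.36 to 0.55), followed by Msmo1 of the late sterol steps (0.37 ± 0.055, adjusted p = 0.000993) and Idi1, isopentenyl diphosphate isomerase (0.45 ± 0.11, adjusted p = 0.0224), all 3 without overlap. Abcg1, which exports cholesterol, rose by 0.36 ± 0.091, adjusted p = 0.0319. Abcg1 lost its call without any 1 of 9 arrays, all but untreated 1 and 5 and desipramine 6 (0.0521 to 0.0820), and Idi1 without desipramine array 4 or 5 (0.0503 and 0.0511). Of 13 fatty acid genes, Lpin1 rose (0.38 ± 0.091) and Fads1 and Acly fell (-0.30 ± 0.066 and -0.26 ± 0.065), with adjusted p of 0.0224, 0.0123 and 0.0296. Lpin1 lost its call without desipramine array 2 or 4 (0.0509 and 0.0529), and Acly without any 1 of 7 arrays, desipramine 1 to 5 and untreated 4 and 5 (0.0550 to 0.0798). Of 28 lysosome and autophagy genes, each by its brightest probe, Abcb9 alone was called, and 4 were called lower with the block, with a list median of -0.032. The brightest probe of Sqstm1 was not called (0.049, adjusted p = 0.786). A dimmer probe of Sqstm1 was called higher (0.25, 0.0389), and another was not (0.17, 0.358). The sterol, fatty acid and lysosome counts stand beside 4.69% called over all tested probes and 12.3% with the block. Those of the lysosome list are near these shares.

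Among survival, growth and oxygen genes the number of calls differed by list, beside 4.69% called over all tested probes. The single calls in the lists of 17, 19 and 20 genes below are near that share. Mcl1, which protects against apoptosis, rose by 0.66 ± 0.075, adjusted p = 5.7e-05 without overlap, as 1 of 8 measured Bcl2 family genes, of which 3 were called with the block. Of 9 p53 targets, 3 rose (4, and 1 fell, with the block): Gdf15, which entered the test through the desipramine arrays alone, Gadd45a and Phlda3 (0.53 ± 0.14, adjusted p = 0.0328), while Cdkn1a had 0.36 ± 0.14 and was not called (adjusted p = 0.152; 0.0290 with the block). Phlda3 lost its call without any 1 of 8 arrays, desipramine 1 to 4 and untreated 2 to 5 (0.0603 to 0.0860). Of 17 G2 and M phase genes, all 17 had a mean below zero, with a median of -0.18, but 1 was called, the kinase Aurkb (-0.25 ± 0.06, adjusted p = 0.0238), and 3 with the block. Aurkb lost its call without desipramine arrays 1 or 4 or untreated arrays 2 or 5 (0.0514 to 0.0664). Of 20 G1 and S genes, Ccnd1 alone was called, and 2 higher and 2 lower with the block.

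Of 19 hypoxia and glycolysis genes, 1 was called lower, the mitophagy receptor Bnip3 (-0.52 ± 0.099, adjusted p = 0.00576). With the replicate block, which called 6.29% of all tested probes higher and 6.04% lower, 1 was higher and 7 lower. Among those are the vasoactive peptide adrenomedullin, Adm (-0.54 ± 0.16, adjusted p = 0.0672, 0.0120 with the block), and the glycolytic enzyme Pfkl (-0.48 ± 0.20, 0.194 and 0.00572). Bnip3 fell most on number 3 (-0.94) and least on number 6 (-0.066).

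The remaining lists overlap with those above, and their counts stand beside 2.88% called higher and 1.80% lower over all tested probes. In lists this short a single call says little about the list. Bhlhe40 and Per1 were called higher of 12 clock genes, Tfrc lower of 10 iron genes, Abcb9 and Abcd2 lower of 10 peroxisome and ABC transporter genes, and Olig1 lower of 7 oligodendrocyte lineage markers (1 higher and 2 lower with the block). Of 16 small GTPases, Rnd3 and Gem were called higher and Rasl11b lower, and with the block 4 were higher and 3 lower.

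Several groups gave 0 calls in limma. These were 27 ribosomal protein genes, with a median of -0.01, and 18 genes of oxidative phosphorylation, with a median of -0.06. Over all tested probes 4.69% were called. At that share lists as short as those of this paragraph hold few calls, so 0 is no result about them. With the block, 1 ribosomal gene was called higher, 1 lower, and 0 of the oxidative genes. Of 9 measured astrocyte markers, 0 were called. With the block, which called 6.04% of all tested probes lower, 4 were lower, among them Vim (-0.23 ± 0.072, adjusted p = 0.0817, 0.00751 with the block) and S100b (-0.23 ± 0.094, 0.199 and 0.0133). Gfap, the intermediate filament that defines astrocytes, had -0.14 ± 0.11 (adjusted p = 0.599). Of 6 neuron, 3 microglia and 3 endothelial markers that were measured, 0 were called with or without the block.

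Genes of the transporters that desipramine blocks were not detected on most arrays. Slc6a2, the noradrenaline transporter, was detected on 4 of 12 arrays and Slc6a4, the serotonin transporter, on 3. Slc6a3, the dopamine transporter, and the receptor Adrb1 were detected on 0. The adrenergic receptors Adra1b and Adra1a were detected on 10 and 7 of 12 arrays. The serotonin receptor Htr1d was detected on 11 and the histamine receptor Hrh1 on 6. Detected on 12 of 12 were the serotonin receptor Htr2a, the muscarinic receptor Chrm3 and monoamine oxidase Maoa, with log2 differences of 0.22 ± 0.10, 0.15 ± 0.16 and -0.14 ± 0.082 (adjusted p = 0.279, 0.684 and 0.419). Of 9 measured genes of such transporters, receptors and enzymes, 0 were called with or without the block, beside 12.3% and 4.69% of all tested probes. Slc6a2 had 0.055 ± 0.12 (adjusted p = 0.861).

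The genes named for their change with desipramine were then set against the other 3 drugs on the same arrays. All 28 arrays entered 1 fit, and desipramine differed from fluoxetine at 943 of 10645 probes (8.86%), from haloperidol at 928 (8.72%) and from diazepam at 944 (8.87%). With the replicate number as a block these counts were 1515, 1539 and 1515. Of the 46 genes named by size, spread or array 6, 25 differed from fluoxetine, 36 from haloperidol and 42 from diazepam, 19 from all 3 and 2 from none. Since the genes were chosen on the desipramine arrays that enter each of these contrasts, the counts describe them and are no independent evidence.

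Il1rl1, Nppb, Bhlhe40, Spry4, Klf10, Ccl2, Dmp1, Sox8 and Clcf1 were higher with desipramine than with any of the other drugs. For Il1rl1 the difference from fluoxetine was 1.68 ± 0.30 (log2, SE; adjusted p = 0.000302), with group means of 8.01 and 6.33, 5.60 with haloperidol and 5.79 with diazepam. For Nppb it was 1.68 ± 0.26 (adjusted p = 5.2e-05). The fit of all 28 arrays shares 1 spread per gene among the groups. The SD with desipramine and fluoxetine was 1.19 and 0.15 for Il1rl1, and 1.02 and 0.28 for Nppb. For such uneven genes the SE and p of this fit understate the error of the desipramine mean. Dmp1 had a log2 difference from untreated of -0.48, -0.23 and -0.66 with the other 3 drugs, beside 1.27 with desipramine. Among the falls, Tfrc, Abcd2, Olig1, Ascl2, Fbxl4 and Dusp1 were lower than with each other drug. For Dusp1 the differences from untreated were -0.64 with desipramine and 0.30, 0.30 and 0.14 with fluoxetine, haloperidol and diazepam.

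Other changes were of a like size with fluoxetine, the other antidepressant, without a detected difference. The difference of desipramine minus fluoxetine was 0.18 ± 0.15 for Serpinb2 (adjusted p = 0.583), 0.018 ± 0.054 for Mafg (0.903), -0.022 ± 0.12 for Smad6 (0.950) and -0.10 ± 0.089 for Fzd8 (0.590). Cxcl1, low on desipramine array 6, had group means of 10.06 ± 0.63 (SD, n = 6) with desipramine and 10.23 ± 0.60 with fluoxetine, a difference that limma did not call (0.787). Id1 had 0.26 ± 0.11, not called without the block (0.161) and called with it (0.0229). A p that misses the threshold does not show that the drugs act alike.

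The named genes of the integrated stress response that passed the test against fluoxetine were lower with desipramine. Desipramine minus fluoxetine was -0.49 ± 0.077 for Atf4 (adjusted p = 7.6e-05), -0.59 ± 0.094 for Ppp1r15a (7.3e-05) and -0.81 ± 0.18 for Trib3 (0.00351). Ccn2 too was lower than with fluoxetine, by -0.70 ± 0.079 (5.4e-07), and higher than with haloperidol and diazepam. Against haloperidol, the differences for Atf4, Ppp1r15a and Trib3 were -0.20, -0.071 and -0.084, with adjusted p of 0.106, 0.726 and 0.846. Hmox1 was higher with desipramine than with fluoxetine (0.53 ± 0.10, 0.00110), and Rasl11b and Entpd2 differed from none of the 3. With the block Entpd2 differed from diazepam (adjusted p = 0.0362).

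**Figure D5:**
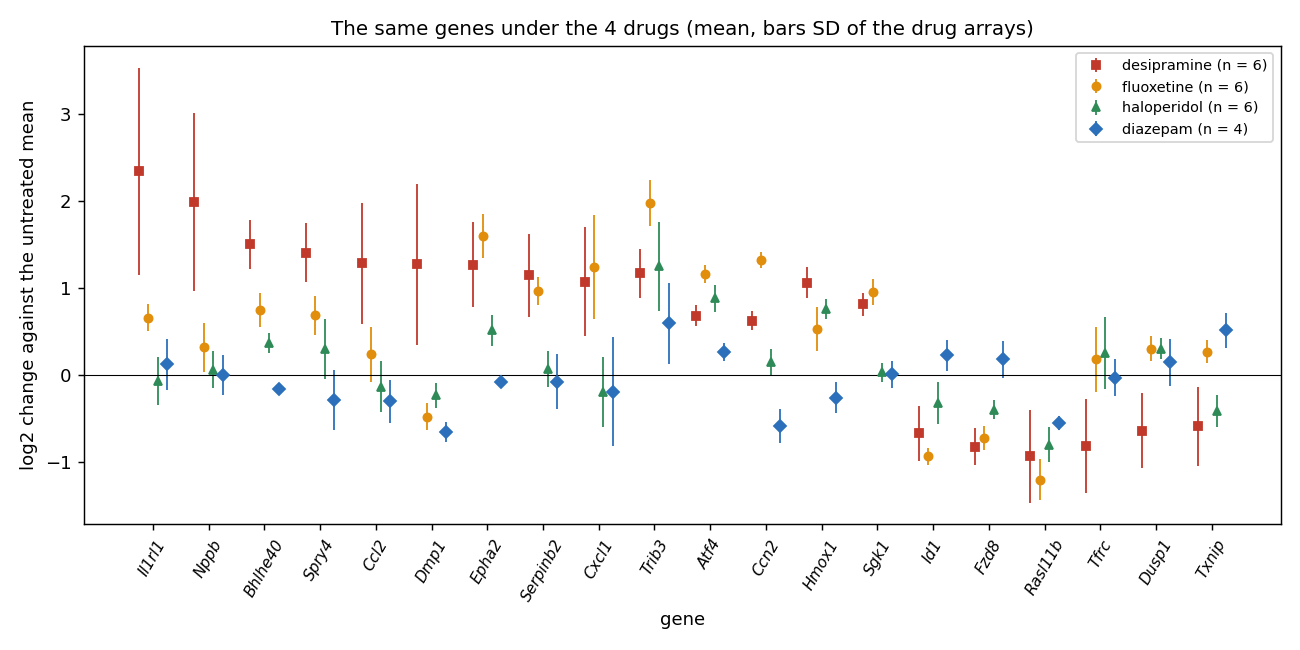
Mean log2 change against the untreated mean (vertical axis) of 20 genes under desipramine, fluoxetine, haloperidol (n = 6 each) and diazepam (n = 4); bars are the SD of the drug's arrays. Desipramine stands apart from the others for Il1rl1, Nppb and Dmp1, with wide bars, lies near fluoxetine for Serpinb2 and Fzd8, and lies below fluoxetine for Trib3, Atf4 and Ccn2.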

How the data were processed

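Total RNA of C6 cells was hybridised to Illumina rat bead arrays. Per the file headers, the authors deposited for each array an average intensity and a detection p-value per probe, from GenomeStudio 1.9.0 per the submitters' processing notes. Whether background had been subtracted is not given in the sources used here. The authors also deposited a table of normalized intensities of the same arrays, used as an alternative, on which the scale was taken as linear and the method stays unknown. Of the intensity columns, 4 from 2 arrays with no sample, were not used.

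Intensities of all 28 arrays were background corrected, quantile normalized and set on the log2 scale with neqc of limma 3.58.1 in R 4.3.3 (offset 16). Negative controls were inferred from the detection p-values. Kept for testing were the 10645 of 22523 probes that 4 or more of the 12 arrays detected. They were tested with lmFit and eBayes with trend on the 6 desipramine and 6 untreated arrays, two-sided. Adjustment was by Benjamini-Hochberg over all kept probes, at 0.05, and "called" means past it. "Detected" means a detection p under 0.05. Errors after log2 differences from untreated are standard errors of that fit. Errors after differences between drugs come from the fit of all 28 arrays. The number of arrays limits the precision. The script was tested on simulated data.

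Gene symbols came from the platform annotation given with the data. Of the probes on the array 13793 had 1 symbol and 8730 none, and 13752 of the symbols matched RefSeq by Entrez ID. Where several probes named a list member, the brightest stood for it. The 41 gene lists and the members were chosen with earlier results of these data known. Named genes, all from probes with 1 symbol, were the 15 largest rises and falls among called probes detected on all arrays of the higher group, the 8 most uneven and 8 most even called genes across desipramine arrays, the 6 in each direction in which number 6 departed most from numbers 1 to 5, and up to 5 members of each list, plus any member called.

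Replicate numbers pair the samples. The correlation of the deviations of same-numbered untreated and desipramine arrays from their group means was 0.36, 0.34, 0.23, 0.27, 0.48 and 0.44 for numbers 1 to 6. Number 1 alone correlated more with another number (0.44) than with its own. The pairing comes from this check, since the labels do not say what a number shares.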

Additional observations from a re-analysis of the deposited data

Results flagged for a closer look

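In each group of 6 arrays, the value farthest from its neighbours was compared with the spread of the group for the 129 genes named or called in a list. In 30 of 258 such groups 1 array stood apart (by Dixon's criterion, its gap to the next array over the whole range), where chance gives about 1 in 20. The 129 include genes chosen because their desipramine arrays spread most or because number 6 departed most, so this rate cannot be read against chance. Of these, 12 were at desipramine array 6 and 12 at untreated array 1. All values are log2 intensities.

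Desipramine array 6 stood below the other 5 desipramine arrays for Bhlhe40 at 10.46, Ccl7 at 7.27, Cxcl1 at 8.86, Hbegf at 8.15, Ier3 at 9.05, Klf10 at 8.68, Pdgfa at 11.92, Tnfrsf12a at 10.11 and Vim at 12.24. It stood above them for Acly at 10.29, Bambi at 10.30 and Rgs2 at 7.65. For the first 8 genes and for Acly, Bambi and Rgs2 this is the direction of the untreated arrays. For Ccl7 the other 5 desipramine arrays lay between 8.61 and 9.30, and for Rgs2 between 6.94 and 7.15.

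Untreated array 1 stood above the other 5 untreated arrays for the early response genes Egr2 at 10.36, Hbegf at 8.96, Ier2 at 8.97, Ier3 at 9.61, Junb at 11.81, Klf10 at 9.05, Mafk at 9.36, Spry2 at 8.82 and Tnfrsf12a at 10.43, and for Nqo1 at 13.66. It stood below them for Rnd3 at 8.38 and Txnip at 12.73. For Ier2 the other untreated arrays lay between 7.32 and 7.73, and for Ier3 between 8.11 and 8.40.

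The remaining 6 were spread over 4 arrays. Untreated array 5 was low for Epha2 at 5.76 and Fhl2 at 7.52 and high for Mmp10 at 6.62. Untreated array 3 was high for Srf at 10.21, desipramine array 5 was high for Gadd45a at 9.96, and desipramine array 4 was low for Per1 at 7.85.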

How the results depend on the processing

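The number of probes called in desipramine against untreated cells, 499, was 447 with median scaling, 450 on the authors' normalized table, 504 without background correction, 504 with an offset of 50, 506 with weights per group, 445 without the trend, 647 with all 28 arrays in 1 fit, 374 with no filter on dim probes and 485 among probes detected on all 12 arrays. It moved by more than 1.5 times to 1313 with the replicate block, 894 with array weights, 996 without desipramine array 6 and untreated array 1 (chosen after seeing the data) and 0 with numbers 5 and 6 alone, a setting with 2 arrays a group. It was 350 with numbers 1 to 4 alone. Leaving out single arrays gave 253 to 718 and leaving out both arrays of a number 138 to 581. The share of calls that were higher was 61.5%. It was 68.7% with median scaling, 51.0% with the replicate block, 55.3% without desipramine array 6 and untreated array 1, and up to 81.2%, without number 4. The replicate block ended no call of the 115 called genes that were named or belonged to a list, and its counts stand beside those lists whose counts it changed. Counts against fluoxetine, haloperidol and diazepam rose with it from 943 to 1515, from 928 to 1539 and from 944 to 1515, and for named genes it added calls against fluoxetine for Gdf15 (adjusted p = 0.0282), Tnfrsf12a (0.0421), Id1 (0.0229) and Id2 (0.0105), against haloperidol for Hmox1 (0.0283) and against diazepam for Trib3 (0.0342) and Entpd2 (0.0362). No called gene that was named or listed reversed in sign. Some named genes that were not called did. Slc6a2 went from 0.055 to -0.0096 without desipramine array 6 and to -0.059 without untreated array 1 as well. Chrm3 went from 0.15 to -0.055 without both arrays. Of the 115 called genes 78 stayed called whichever single array was left out. Besides leaving arrays out, calls were lost for Acly, Aurkb, Tnfrsf1a and Tmed5 with median scaling (adjusted p = 0.0632, 0.0516, 0.0560 and 0.0548) and on the authors' table (0.0681, 0.0600, 0.0506 and 0.0551), for Entpd2 with median scaling (0.197), for Inhba with all 28 arrays (0.0517), for Acly, Aurkb and Klf4 with no filter (0.0598, 0.0592 and 0.0507), for 10 genes without the trend and for 17 with numbers 1 to 4 alone. The exact permutation test of the 15 uneven and array 6 genes stayed under 0.05 in each. Those genes were chosen among probes called on the same arrays, so that result is no independent evidence. The cause of these moves was not tested, except that fewer arrays enter the settings that leave arrays out. Probes at background on most arrays were not tested.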
